A study of Danio rerio with 4 samples.

Results

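Ribosomal protein genes were followed in sorted zebrafish (Danio rerio) neural crest cells. They were chosen by gene name: names starting with rpl or rps and then a digit or p, without the S6 kinase genes (rps6k). The pattern took 82 of the names in the deposited table, 47 of the large ribosomal subunit (rpl) and 35 of the small subunit (rps); the table held values for 26267 gene names in all. A value was present for 81 of the 82, since the 2 transcripts of rps20 had empty cells in all 4 columns, and 80 reached the mean of 1 TPM (transcripts per 1e+06, an abundance corrected for transcript length and given as a part of the library) that was needed for testing. The one left out, rps8b, was listed at 0 in mutant replicate 2 and had 1.19 TPM in mutant replicate 1, with 0.335 and 0.138 TPM in the wild-type samples.

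The study set neural crest cells of nr2f mutant embryos against those of wild-type embryos at 20 hours post fertilization, asking how Nr2f nuclear receptors steer cranial ectomesenchyme. The mutant samples are titled as nr2f2;nr2f5 mutants, while their genotype label leaves the nr2f2 allele unknown and marks only nr2f5 as mutated; wild-type samples carry no listed mutation. All 4 samples share the sox10:DsRed transgene, whose red fluorescence was used for the sort and which also marks cells outside the crest, such as those of the otic vesicle. Embryos were pooled, 88 and 35 of them in the mutant and 110 and 120 in the wild-type pools, with no label tying a number to a replicate. The labels call the 2 samples of a group biological replicates. P-values rest only on the spread between such samples, which limma moderates for each gene towards that of other genes. Values of a group are given for replicate 1 and then replicate 2.

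A ribosome is built from ribosomal RNA and a set of ribosomal proteins, each present once in most cases, in a large subunit that joins amino acids and a small subunit that reads the mRNA. The acidic stalk of the large subunit is the exception, as it holds several copies of its P proteins and recruits the elongation factors. Messenger RNAs of ribosomal proteins mostly begin with a pyrimidine tract that lets the mTOR pathway set their translation, so their mRNA level alone does not give the rate of protein synthesis. Neural crest and the craniofacial skeleton are known to be sensitive to loss of ribosome production, as in Treacher Collins syndrome, and human mutations in many ribosomal protein genes cause Diamond-Blackfan anaemia.

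The labels were checked first. The mutated gene nr2f5 had 46.5 and 47.1 TPM in mutant samples, against 579 and 559 TPM in wild-type samples (log2 fold change -3.58 ± 0.12, limma, SE, adjusted p = 1.07e-06). The gene nr2f2 stood at 67.2 and 51.7 TPM in mutant samples, against 73.5 and 59.3 TPM in wild-type samples, and the groups overlapped. Crest markers were present in every sample, with sox10 at 590 and 461 TPM in mutant samples, against 411 and 318 TPM in wild-type samples; of the 6 on the list, crestin and foxd3 rose and twist1a and snai2 fell. Markers of other cells also differed between the groups. Of 12 tested skeletal muscle markers 5 fell and 0 rose, with a summed level of 111 to 251 TPM in mutant and 710 to 2234 TPM in wild-type samples. Of 8 tested myeloid markers 7 fell and 0 rose, with sums of 22.4 to 31.6 TPM in mutant and 179 to 273 TPM in wild-type samples, and lyz, mpx, mpeg1.1 and marco were listed at 0 in at least 1 sample. None of 10 tested epidermis and periderm markers passed limma (1 had an unadjusted p under 0.05), but their sum was 452 to 623 TPM in the mutant samples, 543 TPM in wild-type replicate 1 and 3735 TPM in wild-type replicate 2. Of 8 endothelial markers 1 rose and 1 fell, and of 7 erythroid markers 0 passed (5 lay lower at an unadjusted p under 0.05). The part of these other cells in the ribosomal protein values was not tested. In bulk samples, fewer cells of a type and less RNA per cell cannot be told apart.

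Ribosomal protein mRNAs took up a large part of each library. Their summed TPM was 13.2% and 13.8% of the mutant libraries and 11.3% and 12.9% of the wild-type libraries. Both mutant samples lay above both wild-type samples, but wild-type replicate 2 was nearer to the mutant samples than to its own replicate. The means were 13.5% ± 0.42 in mutant and 12.1% ± 1.1 in wild-type samples (SD, n = 2 each), a difference of 1.38 percentage points with an exact two-sided permutation p of 0.33, the smallest that 2 samples against 2 can give. The difference was 0.605 percentage points without wild-type replicate 1 and 2.15 without wild-type replicate 2. Large subunit genes made up 7.84% and 8.22% of the mutant libraries and 6.79% and 7.72% of the wild-type libraries. Small subunit genes made up 5.35% and 5.57% of the mutant libraries and 4.54% and 5.16% of the wild-type libraries. The ratio of large to small subunit TPM was 1.467 and 1.476 in the mutant samples and 1.495 in both wild-type samples. The small subunit sum thus held a slightly larger part of the mutant total (exact two-sided permutation p = 0.33, again the smallest possible). That sum includes rps4x and rps13, the 2 genes that rose. The ratio was not taken without them, so it does not show a shift of the small subunit as a whole. The median log2 fold change was no higher for small subunit genes, at 0.16 against 0.18 for the large subunit. Mitochondrially encoded mRNAs, a rough sign of RNA and cell condition, were at 0.438% and 0.331% in mutant and 0.41% and 0.486% in wild-type libraries.

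**Figure D1:**
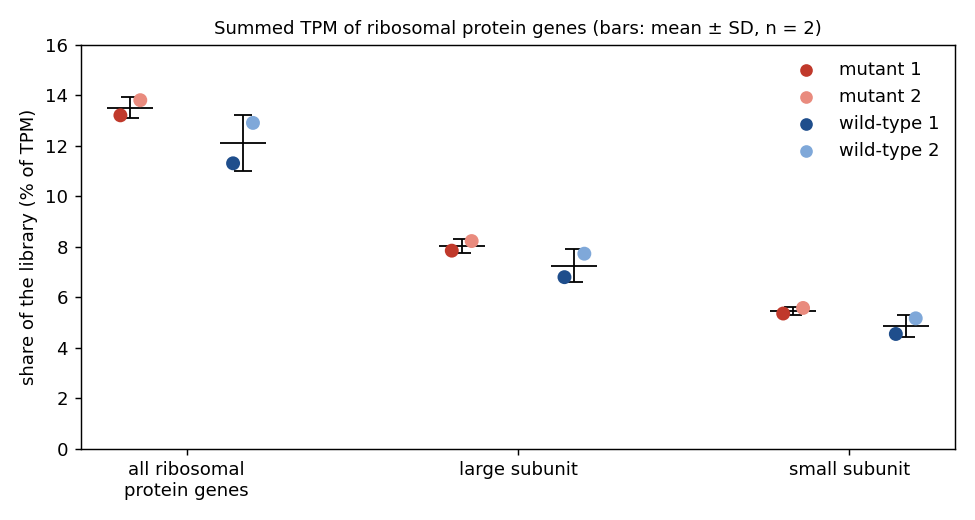
Summed TPM of all ribosomal protein genes and of each subunit as a percent of the library, with mutant samples left of wild-type samples; points are samples, and the bars give the mean and SD of 2 samples. The family sum is 13.2% and 13.8% in the mutant samples against 11.3% and 12.9% in the wild-type samples, with wild-type replicate 1 lowest.

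The level of single genes ran over a wide range, although TPM is corrected for length and each protein is needed at about the same number per ribosome. Over the 4 samples the mean ran from 128 TPM for rps19bp1 to 5746 TPM for rpl32, with a median of 1531 TPM over the 80 tested genes, 1454 TPM for the large and 1538 TPM for the small subunit. A mean of 1000 TPM or more was reached by 59 genes, 8 tested genes stayed below 400 TPM, and the 10 most abundant genes held 27.7% of the family's TPM. Of the 100 most abundant genes in the whole table, 42 were ribosomal protein genes. Names that match the pattern but do not encode core subunits were among the lower ones. They include rps19bp1, whose product binds Rps19, at 129 and 148 TPM in mutant samples, against 123 and 112 TPM in wild-type samples. The gene rps27a, which does encode a small subunit protein, as a fusion with ubiquitin, averaged 1672 TPM over all samples. Genes of core subunits were low too: rps3, at the mRNA entry of the small subunit, stood at 243 and 238 TPM in mutant samples, against 209 and 255 TPM in wild-type samples, and rpl35a at 169 and 172 TPM in mutant samples, against 152 and 165 TPM in wild-type samples. Whether other copies of these genes, outside the summed names, hold part of the mRNA was not tested.

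Among the most abundant genes of each subunit rps4x, described with the genes that rose, passed the test, and those given here did not. In the large subunit the leading genes were rpl32, rpl19, rplp1, rplp0 and rpl3. The gene rpl32 stood at 5989 and 6141 TPM in mutant samples, against 5052 and 5804 TPM in wild-type samples. The gene rpl3, whose product reaches towards the peptidyl transferase centre, stood at 3353 and 3440 TPM in mutant samples, against 3004 and 3182 TPM in wild-type samples. For both, the mutant samples lay above the wild-type samples, but neither passed the test (log2 fold change 0.16 ± 0.08 for rpl32 and 0.14 ± 0.08 for rpl3, limma, adjusted p = 0.282 and 0.338). For rpl19, at 3707 and 3584 TPM in mutant samples, against 3433 and 4210 TPM in wild-type samples, the groups overlapped. Abundant genes of the small subunit included rps2, rps12, rps4x and rps7. The gene rps2 stood at 4493 and 5110 TPM in mutant samples, against 4089 and 4235 TPM in wild-type samples (log2 fold change 0.20 ± 0.08, adjusted p = 0.193). For rps7 the mutant samples also lay above the wild-type samples, at 2375 and 2516 TPM in mutant samples, against 1992 and 2184 TPM in wild-type samples. Samples of the groups overlapped for rps12, at 3344 and 3320 TPM in mutant samples, against 3017 and 3597 TPM in wild-type samples.

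Of the 80 tested ribosomal protein genes, 2 rose, 0 fell and 78 did not pass (limma on log2(TPM + 1), Benjamini-Hochberg over all 14217 tested genes, called at an adjusted p under 0.05). Over all tested genes 1.13% rose and 2.95% fell, 4.08% in either direction. The 2 members, both of them rises, are 2.5% of the family. That share lay above the 1.13% of all genes that rose and below the 4.08% called in either direction. Without adjustment 30 of the 80 members lay higher and 0 lower at a p under 0.05, against 6.05% and 14.3% of all tested genes. Both genes that rose belong to the small subunit.

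The gene rps4x encodes a small subunit protein named after its X-linked human gene. It had 3197 and 3391 TPM in mutant samples, against 2120 and 2237 TPM in wild-type samples. Both mutant values lay outside the range of the wild-type values, with a log2 fold change of 0.60 ± 0.08, or 1.51-fold (adjusted p = 0.00424). A single transcript held 99.7% of its TPM. The gene rps13 stood at 1999 and 2245 TPM in mutant samples, against 1386 and 1484 TPM in wild-type samples, again without overlap (log2 fold change 0.56 ± 0.09, adjusted p = 0.0105). Its TPM came from 2 gene IDs, and both rose when tested per ID. IDs of one name may share reads, so these are not 2 independent results. ENSDARG00000112818 was at 1144 and 1256 TPM in mutant samples, against 771 and 837 TPM in wild-type samples (log2 fold change 0.58 ± 0.10, adjusted p = 0.0117), and ENSDARG00000036298 at 855 and 989 TPM in mutant samples, against 615 and 646 TPM in wild-type samples (log2 fold change 0.54 ± 0.10, adjusted p = 0.0212). With mutant replicate 1 left out neither gene was called (adjusted p = 0.0597 for rps4x and 0.0661 for rps13), nor with mutant replicate 2 left out (0.113 and 0.189), with no filter on low values (0.0893 and 0.115) or with limma without trend and robust (0.23 and 0.258). The log2 fold changes in those fits were 0.55 to 0.64 for rps4x and 0.48 to 0.65 for rps13.

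**Figure D2:**
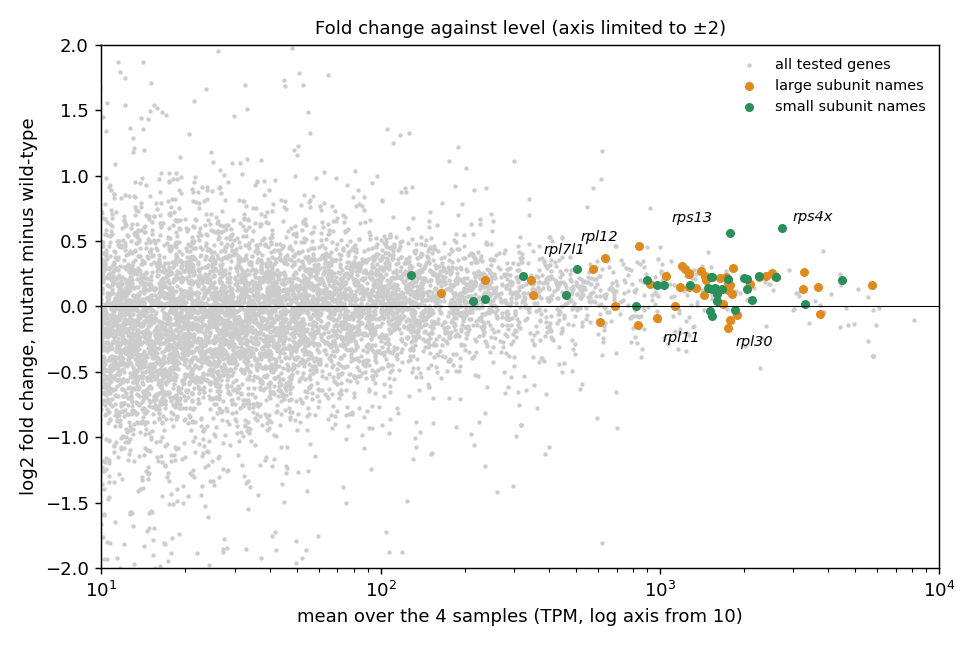
Log2 fold change (mutant minus wild-type, on log2(TPM + 1)) against mean TPM on a log axis, for all tested genes at 10 TPM or more within ±2 (grey) and for large and small subunit genes (coloured). The genes rps4x and rps13, at 0.60 and 0.56, stand above the rest of the family, whose middle part lies between 0.09 and 0.23.

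The family as a whole lay slightly higher in the mutant cells. The log2 fold change was above 0 for 70 of 80 genes, 87.5%, against 36.7% of all tested genes, and its median was 0.17 against -0.16 over all tested genes. Under median-ratio scaling these medians were 0.32 and -0.03, and under quantile normalization 0.08 and 0.03. Both mutant samples lay above both wild-type samples for 53 genes, 66.2% of the family, and below them for 0; over all tested genes these shares were 18.2% and 34.9%. The 1674 other genes that averaged at least 100 TPM, a level chosen after the values were seen, had a median of 0.07, with 59.7% above 0 and 39.1% without overlap upward. Of 74 mitochondrial ribosomal protein genes, 89.2% lay above 0 and 71.6% were without overlap upward, with a median of 0.23. For 50 ribosome assembly genes these values were 84%, 54% and 0.19. They were 55.6%, 44.4% and 0.13 for 9 RNA polymerase I genes, and 66.7%, 27.8% and 0.05 for 18 elongation factor and similar genes. The median of the family minus that of all genes was 0.33, but 0.05 under quantile normalization and 0.16 without wild-type replicate 1. The members share 4 libraries, so their counts do not measure independent events. Large subunit genes had a median of 0.18 and small subunit genes one of 0.16, with 33 of 47 and 20 of 33 genes without overlap.

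Much of the family moved together between replicates of the same genotype. Wild-type replicate 1 was the lowest of the 4 samples for 77 of 80 genes, 96.2%, against 15.5% of all tested genes. Wild-type replicate 2 exceeded wild-type replicate 1 for 79 of the 80, 98.8%, against 36.6% of all tested genes. The median log2 ratio was 0.17, as large as the median difference between the groups, and the median over all tested genes was -0.13. Mutant replicate 2 exceeded mutant replicate 1 for 59 genes, 73.8%, against 40.7% of all tested genes, with a median log2 ratio of 0.06. For 20 genes, 25% of the family, wild-type replicate 2 was the highest of all samples, a share near the 20.4% of all tested genes. For 18 genes both mutant samples lay between the wild-type samples, and the share of all tested genes is not given for this. The widest gaps between the wild-type samples were those of rpl11, rpl30, rps23, rplp2, rpl36, rps27l and rps29, the 7 genes whose log2 ratio exceeded 0.35. Wild-type replicate 2 also had the larger summed muscle and epidermis marker levels, 2234 and 3735 TPM, against 710 and 543 TPM in wild-type replicate 1. Its myeloid sum was larger too, at 273 against 179 TPM. The erythroid and endothelial sums were smaller in wild-type replicate 2, at 553 and 189 TPM, against 808 and 252 TPM in wild-type replicate 1. The part of any of these cells in this pattern was not tested.

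The clearest of these was rpl11, whose product binds the 5S ribosomal RNA and, when free, the p53 regulator Mdm2. It stood at 949 and 924 TPM in mutant cells and at 789 and 1257 TPM in wild-type cells, so the wild-type samples enclosed the mutant ones. The gene rpl30 stood at 1718 and 1575 TPM in mutant samples, against 1535 and 2220 TPM in wild-type samples, and rps23, of the decoding centre, at 1539 and 1442 TPM in mutant samples, against 1324 and 1846 TPM in wild-type samples. Across the 80 genes, the log2 ratio between the replicates in mutant cells and that in wild-type cells had a Pearson's r of -0.567; the points share the same 4 libraries, and genes are not independent replicates. Over all tested genes the same r was -0.012. With wild-type replicate 1 left out, rpl11 and rpl30 were called lower in mutant cells (limma, log2 fold change -0.42 and -0.43, adjusted p = 0.0346 and 0.0219), and with wild-type replicate 2 left out the signs were positive. With all samples neither passed (log2 fold change -0.09 ± 0.22 for rpl11 and -0.17 ± 0.17 for rpl30, adjusted p = 0.851 and 0.617).

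**Figure D3:**
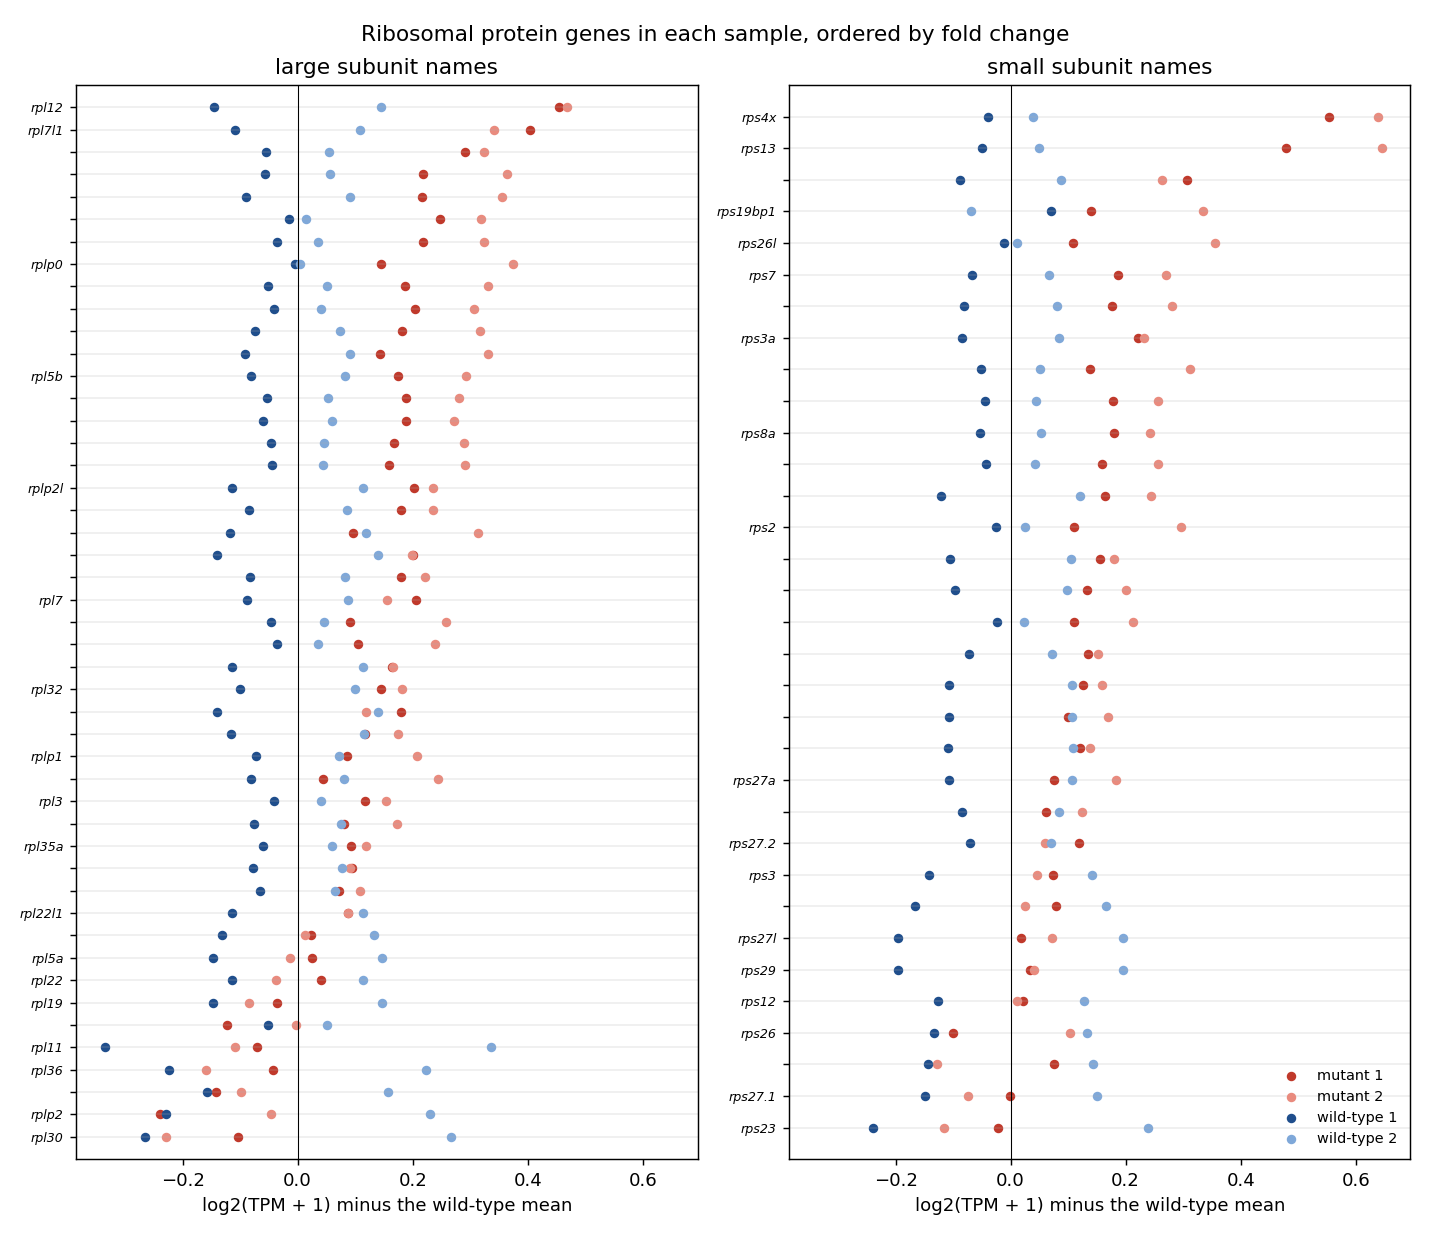
Each of the 80 tested genes, large subunit on the left and small subunit on the right, with the 4 samples as points on log2(TPM + 1) minus the gene's wild-type mean, ordered by fold change and with names for genes described in the text. Both mutant samples lie right of both wild-type samples for 53 genes, and wild-type replicate 1 is leftmost for 77.

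Scaling each library to the same family total showed which genes differed from the rest of the family. Then 2 members were higher and 0 lower, against 0.753% higher and 4.63% lower over all tested genes, 5.38% in either direction, and the median over all tested genes moved to -0.30. The 2 were again rps4x (log2 fold change 0.44 ± 0.08, limma, adjusted p = 0.00166) and rps13 (0.40 ± 0.09, adjusted p = 0.00858). With mutant replicate 1 left out, with wild-type replicate 2 left out, or with the replicate number as a block, the call held for rps4x and was lost for rps13; it was lost for both with mutant replicate 2 left out. With wild-type replicate 1 left out both held, and rpl11 and rpl30 were then called lower than the family.

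The stalk of the large subunit recruits translation factors. Its genes rplp0, rplp1, rplp2 and rplp2l and its base gene rpl12 were grouped after their values were seen. Of these 5 genes 0 passed, against 4.08% called over all tested genes. Their median log2 fold change was 0.22, against 0.17 over the family and -0.16 over all tested genes. The base gene rpl12 stood at 965 and 975 TPM in mutant samples, against 637 and 779 TPM in wild-type samples. It lay higher by 0.46 ± 0.11, just outside the threshold (limma, adjusted p = 0.0509), and was called with the replicate number as a block (0.0425), at a mean of 5 TPM or more (0.0406) and without wild-type replicate 2 (0.0132). It was not called without wild-type replicate 1 (log2 fold change 0.32, adjusted p = 0.13), without mutant replicate 1 (0.207) or 2 (0.319), with no filter on low values (0.208) or under limma without trend and robust (0.341). Most of its TPM came from ENSDARG00000006691, at 826 and 869 TPM in mutant samples, against 468 and 645 TPM in wild-type samples. That ID passed in the fit over all gene IDs (limma, adjusted p = 0.0496). ENSDARG00000114004, of the same name, lay lower in that fit (log2 fold change -0.30 ± 0.18, adjusted p = 0.359). It stood at 140 and 106 TPM in mutant samples, against 169 and 134 TPM in wild-type samples, and the groups overlapped. The stalk's anchor gene rplp0 stood at 3306 and 3879 TPM in mutant samples, against 2980 and 3001 TPM in wild-type samples (log2 fold change 0.26 ± 0.09, adjusted p = 0.137). The acidic protein gene rplp1 stood at 3724 and 4052 TPM in mutant samples, against 3338 and 3690 TPM in wild-type samples (0.15 ± 0.08, adjusted p = 0.345). For both, the mutant samples lay above the wild-type samples.

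The 5S particle, made of 5S ribosomal RNA with Rpl5 and Rpl11, is added to the large subunit as one unit. Of its 3 genes, rpl5a, rpl5b and rpl11, 0 passed. The gene rpl5a stood at 701 and 683 TPM in mutant samples, against 622 and 763 TPM in wild-type samples, enclosed by the wild-type samples as rpl11 was. Its paralog rpl5b stood at 1087 and 1180 TPM in mutant samples, against 910 and 1019 TPM in wild-type samples, without overlap (log2 fold change 0.23 ± 0.10, limma, adjusted p = 0.215). Among 9 genes at the lining or rim of the exit tunnel, 0 passed, with a median log2 fold change of 0.20. Among 8 genes of the mRNA path and decoding centre, 0 passed, with a median of 0.10. Of 20 zebrafish genes matching human Diamond-Blackfan anaemia genes, 0 passed, with a median of 0.15. Of these, 18 lay above 0, 90%, against 87.5% of the family and 36.7% of all tested genes. Without overlap upward were 11, 55%, against 66.2% of the family and 18.2% of all tested genes. These groups were drawn up after the values were seen, and over them limma gave 0 calls. Over all tested genes 4.08% were called, so 0 calls in groups this small tells little. The median log2 fold change was 0.17 over the family and -0.16 over all tested genes. At an unadjusted p under 0.05, 7 of the 20 anaemia genes lay higher, against 30 of the 80 members and 6.05% of all tested genes. All their genes reached the mean of 1 TPM.

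Paralog pairs were compared by the log2 ratio of their members, in a fit over 1334 pairs of the whole table whose names differ by a final a or b, by a final number after a point, or, in this family, by a final l or l1. In all, 5.7% of the pairs differed between the groups. Within the family 6 pairs could be tested and 0 passed. An unadjusted p under 0.05 was seen for 3 of them. The share of all pairs at that level was not taken, so this count has no comparison. The most different was the stalk pair rplp2l and rplp2. The gene rplp2l stood at 1748 and 1790 TPM in mutant samples, against 1404 and 1645 TPM in wild-type samples. The gene rplp2 stood at 735 and 840 TPM in mutant samples, against 740 and 1017 TPM in wild-type samples. The share of rplp2l in the pair was thus 70.4% and 68.1% in mutant and 65.5% and 61.8% in wild-type cells, without overlap (difference of the log2 ratio 0.36 ± 0.10, limma, adjusted p = 0.0746). That difference passed with the replicate number as a block (adjusted p = 0.00291) and without wild-type replicate 1 (0.48, adjusted p = 3.36e-04). It was 0.25 without wild-type replicate 2 (adjusted p = 0.209) and 0.28 without mutant replicate 1 (0.297), and did not pass without mutant replicate 2 (adjusted p = 0.175) or under limma without trend and robust (0.526).

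The pair rpl7l1 and rpl7 showed a smaller shift, with rpl7l1 at 27.9% and 27.7% of the pair in mutant and 24.9% and 25.4% in wild-type cells (difference 0.19 ± 0.08, limma, adjusted p = 0.233). Here rpl7l1, one of the names not taken as core subunits, stood at 732 and 700 TPM in mutant samples, against 513 and 595 TPM in wild-type samples. Its own log2 fold change was 0.37 ± 0.11 (adjusted p = 0.0923; 0.0485 without wild-type replicate 2 and 0.272 to 0.365 with any other sample left out). The share of rpl5a beside rpl5b was 39.2% and 36.6% in mutant and 40.6% and 42.8% in wild-type cells (difference -0.23 ± 0.10, adjusted p = 0.237). For rps26l beside rps26 the share was 29.6% and 30.3% in mutant and 28.4% and 25.1% in wild-type cells (0.23 ± 0.12, adjusted p = 0.323). The shares of the groups did not overlap in any of the 6 tested pairs of the family, yet none of the differences passed. How many of all 1334 pairs were without overlap was not counted.

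The remaining pairs showed the least shift. The gene rpl22l1 held 23.7% and 24.7% of its pair with rpl22 in mutant and 23.1% in both wild-type samples (difference 0.09 ± 0.10, limma, adjusted p = 0.715). In mice, Rpl22 and Rpl22l1 encode RNA-binding proteins that can replace each other in the ribosome. The gene rps27.1 held 75.9% and 75.7% of its pair with rps27.2 in mutant and 76.4% and 78.3% in wild-type cells (-0.13 ± 0.10, adjusted p = 0.524). Another gene of that kind, rps27l, known in mammals as a p53 target, stood at 212 and 220 TPM in mutant samples, against 183 and 240 TPM in wild-type samples, and the groups overlapped. The pair rps8a and rps8b was not tested, as rps8b was below 1 TPM on average, while rps8a stood at 1841 and 1922 TPM in mutant samples, against 1567 and 1686 TPM in wild-type samples.

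**Figure D4:**
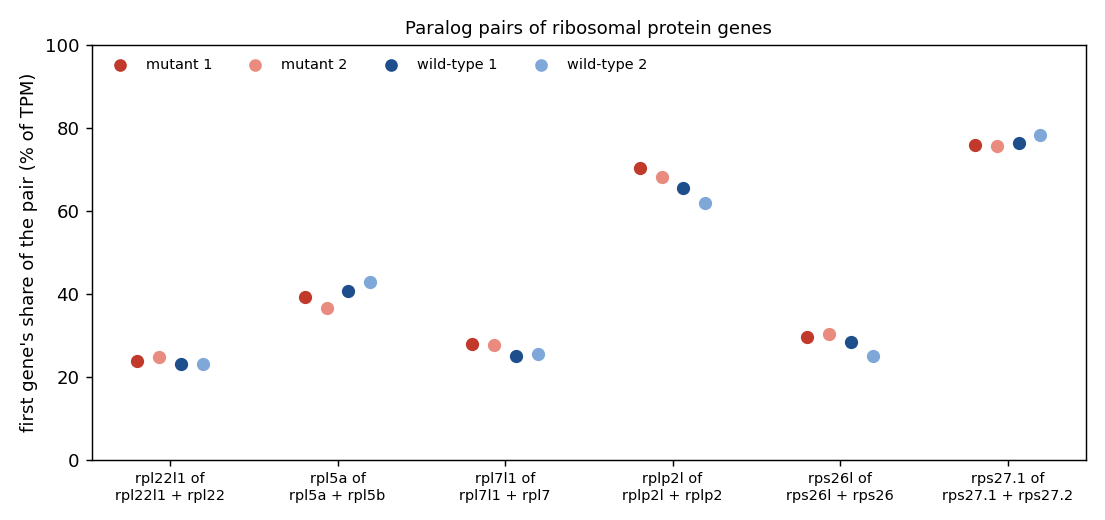
Share of the first gene in the summed TPM of each of the 6 tested paralog pairs, one point per sample, with mutant samples left of wild-type samples. The rplp2l share, at 70.4% and 68.1% in mutant against 65.5% and 61.8% in wild-type samples, is the most different.

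Summing by name hid larger shifts between gene IDs that carry the same name. Of the 81 names with a value, 18 joined 2 or more gene IDs, 40 IDs in all, of which 19 have an entry in the table of gene symbols used here and 21 do not. This comparison was added after the values were seen. The ratio of the 2 most abundant IDs was tested for 1427 names of the whole table, and 14.3% differed between the groups; of 17 ribosomal protein names 3 differed, 17.6%, a share near that background. IDs of one name may be near-identical copies or versions of 1 locus that share reads, so values of single IDs are uncertain.

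The shifts of rpl5b and rps3a were the largest of the 17. For rpl5b, ENSDARG00000109661 stood at 47.2 and 36.5 TPM in mutant samples, against 327 and 408 TPM in wild-type samples, while ENSDARG00000015862, the one with a symbol entry, stood at 1040 and 1143 TPM in mutant samples, against 583 and 612 TPM in wild-type samples. That ID held 95.7% and 96.9% of the pair in mutant and 64.1% and 60% in wild-type cells (difference of the log2 ratio 3.98 ± 0.22, limma, adjusted p = 0.00512). For rps3a, ENSDARG00000115378, which has no symbol entry, stood at 1363 and 1346 TPM in mutant samples, against 740 and 779 TPM in wild-type samples. ENSDARG00000035692, which has one, stood at 283 and 311 TPM in mutant samples, against 592 and 717 TPM in wild-type samples. The share of the first was 82.8% and 81.2% in mutant and 55.6% and 52.1% in wild-type cells (difference 1.97 ± 0.12, adjusted p = 0.00642). For each of these names the ID with the larger sum rose and the other fell when tested per ID (adjusted p = 0.00181 and 4.81e-05 for rpl5b, 0.00141 and 0.00161 for rps3a), and the sums per name did not pass. The remaining name was rps27a, with 61.2% and 61.3% in mutant and 53.6% and 54.3% in wild-type cells for its more abundant ID (difference 0.43 ± 0.08, adjusted p = 0.0451). For rps13 the more abundant of the 2 IDs held 57.2% and 56% in mutant and 55.6% and 56.4% in wild-type cells, and that difference did not pass (0.03 ± 0.09, adjusted p = 0.822). None of the 3 was called with either mutant sample or wild-type replicate 2 left out (adjusted p = 0.0604 to 0.207), and rps27a was also lost at a pseudocount of 0.1 TPM (0.0528), with the replicate block (0.0787) and with wild-type replicate 1 left out (0.13).

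**Figure D5:**
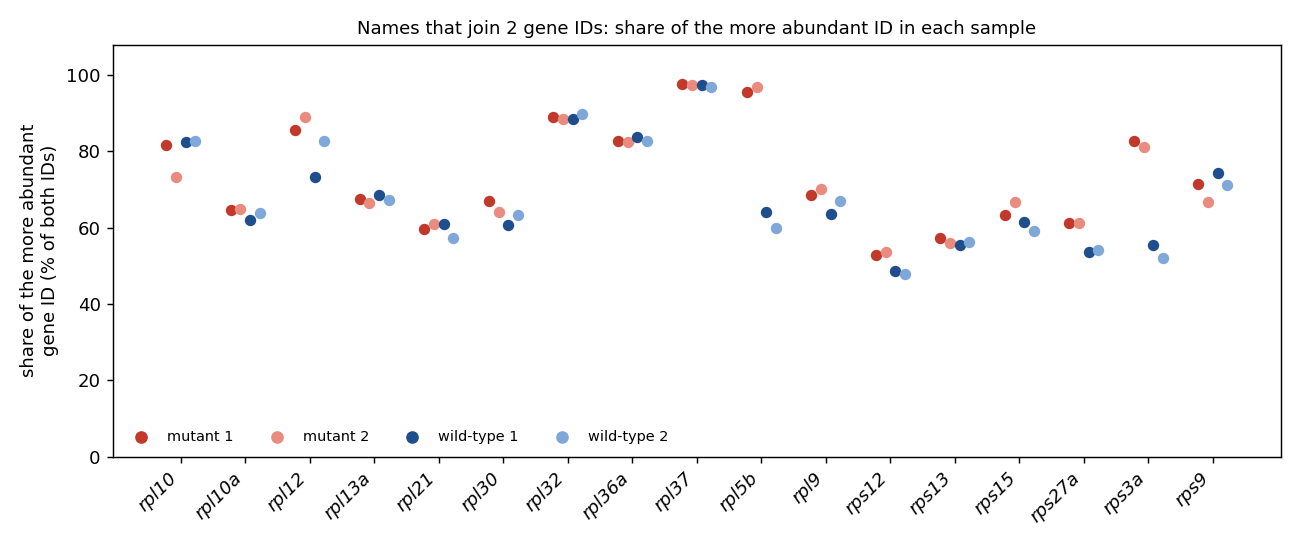
Share of the more abundant gene ID in the TPM of both IDs, for the 17 ribosomal protein names with 2 IDs at a mean of 1 TPM or more, one point per sample, with mutant samples left of wild-type samples. The names rpl5b (95.7% and 96.9% in mutant, 64.1% and 60% in wild-type samples) and rps3a (82.8% and 81.2% in mutant, 55.6% and 52.1% in wild-type samples) stand out.

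Tested per gene ID, 8 of 97 IDs of ribosomal protein genes passed, 6 upward and 2 downward, against 1.84% upward and 3.66% downward, 5.5% in all, over the IDs of the whole table. These were the IDs of rps4x, both of rps13, both of rpl5b, both of rps3a and one of rpl12. Tested per transcript, 7 of 199 passed, 5 upward and 2 downward, against 0.965% upward and 1.56% downward, 2.52% in all, over all transcripts. They belong to rps4x, rps13, rpl5b and rps3a.

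Other genes of the ribosome and its making were read from the same fit. Over all tested genes its median was -0.16, and 1.13% rose and 2.95% fell. At an unadjusted p under 0.05, 6.05% of all tested genes lay higher and 14.3% lower. Of 3 tested ribosome genes outside the name pattern, 1 rose and 0 fell; fau had no value. The gene rack1, whose product is a scaffold on the head of the small subunit, stood at 1578 and 1815 TPM in mutant samples, against 1198 and 1339 TPM in wild-type samples (log2 fold change 0.42 ± 0.10, limma, adjusted p = 0.0495), a call lost under most alternatives (adjusted p = 0.0508 to 0.43). The gene rpsa, another small subunit protein gene, stood at 1488 and 1627 TPM in mutant samples, against 1264 and 1327 TPM in wild-type samples (adjusted p = 0.132). Of 74 mitochondrial ribosomal protein genes, 2 rose and 0 fell, with a median of 0.23 (25 were higher and 1 lower at an unadjusted p under 0.05). Those that rose were mrpl42 (222 and 247 TPM in mutant, 147 and 142 TPM in wild-type cells) and mrpl20 (283 and 269 TPM in mutant, 171 and 185 TPM in wild-type cells), at adjusted p = 0.0162 and 0.0193. Both calls were lost with mutant replicate 1 left out (adjusted p = 0.0791 and 0.138) and with mutant replicate 2 left out (0.181 and 0.143).

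Of 50 ribosome assembly genes, 1 rose and 0 fell, with a median of 0.19 (15 were higher and 0 lower at an unadjusted p under 0.05). The one that rose was npm1a, which encodes the abundant nucleolar protein nucleophosmin, at 4476 and 4334 TPM in mutant samples, against 3545 and 3029 TPM in wild-type samples (log2 fold change 0.43 ± 0.09, limma, adjusted p = 0.0274). Its call was lost under median-ratio scaling (0.0638), quantile normalization (0.101), and without mutant replicate 1 (0.201) or 2 (0.235). Of 9 tested genes of RNA polymerase I and its factors, which make the large ribosomal RNA precursor, 0 passed (2 were higher and 1 lower at an unadjusted p under 0.05); polr1d, the most abundant, stood at 222.5 and 221.8 TPM in mutant samples, against 174 and 191 TPM in wild-type samples. The next, polr1e, stood at 177 TPM in both mutant samples and at 136 and 125 TPM in wild-type cells.

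Elongation factor genes and others were listed together as having mRNAs with a starting pyrimidine tract, which was not examined here. Of 18 tested, 1 rose and 0 fell, with a median of 0.05 (2 were higher and 0 lower at an unadjusted p under 0.05). The one that rose was eif4a1a, which encodes an initiation helicase, at 1177 and 1134 TPM in mutant samples, against 742 and 635 TPM in wild-type samples (log2 fold change 0.75 ± 0.10, limma, adjusted p = 0.00488; 0.0768 without mutant replicate 1 and 0.0776 without mutant replicate 2). Targets of p53, which is stabilized when ribosome assembly fails, were counted too. Of 13 tested, 0 rose and 1 fell, with a median of -0.32 (0 were higher and 4 lower at an unadjusted p under 0.05). The gene rps27l is in both this list and the family. The gene phlda3, a p53 target that restrains Akt signalling, stood at 71.2 and 72.9 TPM in mutant samples, against 106 and 144 TPM in wild-type samples (log2 fold change -0.77 ± 0.17, adjusted p = 0.0402). Its call was lost under median-ratio scaling (0.108) and quantile normalization (0.0558) and without mutant replicate 1 (0.166), mutant replicate 2 (0.218) or wild-type replicate 2 (0.152).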

How the data were processed

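RNA was extracted from sorted cells, turned into amplified cDNA and sequenced, per the labels' protocols. The authors deposited 1 table of TPM for 65905 Ensembl transcripts, of which 57775 had values, with 0 columns left without a sample. Per the submitters' processing notes the tools include kallisto and the build is GRCz11; no version or annotation release is given in the sources used here. Each TPM column sums to 1e+06 and keeps no read depth, so depth is unknown and no counting interval or floor is given.

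TPM was summed per gene name (gene ID where blank) and analysed as log2(TPM + 1), which understates low genes' changes. Those averaging at least 1 TPM were tested, mutant against wild-type, with limma 3.58.1 in R 4.3.3 (lmFit, eBayes with trend and robust, statmod 1.5.0), two-sided, with Benjamini-Hochberg adjustment over all genes. Errors are moderated SE, n = 2 samples per group. Ratios of paralogs and of gene IDs were fitted the same way over all such pairs. Simulated data were run only through the procedure used for genes, so they do not test the fits of ratios. Python 3.11.15 was used for sums and plots.

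Members and lists were chosen with earlier results of these data known. Named were members that passed, the 5 most abundant per subunit, stalk genes, paralog pairs, names that are not core subunits, names listed at 0 and, of related lists, up to 4 genes that passed or the most abundant; role groups, the comparison of gene IDs and other genes were chosen after their values were seen. Alternatives were other pseudocounts, filters, scalings, moderation, gene units, the replicate block and leaving out each sample. Single genes that the naming rule takes but that are not named are not reported here; they remain in every count and sum.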

Additional observations from a re-analysis of the deposited data

How the results depend on the processing

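Depth is unknown and each group holds 2 samples, which limits every test here; with 1 sample left out, limma takes the lone sample to vary like the other group's. The count of ribosomal protein genes that rose (2) was 0 without a filter and 0 under plain limma moderation, with no trend or robust fit (2 unadjusted p under 0.05), 6 per gene ID, 5 per transcript, and 0 to 4 with 1 sample left out. The count that fell (0) was 2 per gene ID, 2 per transcript, and 0 to 2 with 1 sample left out. Over all tested genes, rises (161) numbered 1 with no filter, 323 under median-ratio scaling, 0 under plain moderation, 289 per gene ID, and 28 to 164 with 1 sample left out; falls (419) numbered 3 with no filter, 253 under quantile normalization, 0 under plain moderation (where 2531 genes, in both directions, had an unadjusted p under 0.05), and 82 to 483 with 1 sample left out. Under median-ratio scaling the medians of large and small subunit genes were 0.33 and 0.32; with 1 sample left out they ran from 0.093 to 0.267 and from 0.069 to 0.241. Median-ratio scaling moved the median of all genes from -0.16 to -0.03 and quantile normalization moved it to 0.03, and rises made up 43.5% and 47.9% of the calls there, against 27.8%. Among the uncalled members followed through the alternatives, which are not all members, these turned in sign: rpl11 (0.065 under median-ratio scaling, and -0.42 to 0.25 with 1 sample left out), rpl30 (-0.43 to 0.10 with 1 sample left out) and rplp2 (0.012 under median-ratio scaling, and -0.37 to 0.087 with 1 sample left out). Members higher relative to the family total (2) numbered 0 to 2, and those lower (0) 0 to 2, with 1 sample left out. Names with a differing ratio of gene IDs (3) numbered 0 to 2 with 1 sample left out, and differing paralog pairs (0) numbered 0 to 1.

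The labels give both groups the replicate numbers 1 and 2 without saying that a number marks a shared batch. The log2 ratios between replicates in mutant and in wild-type cells had an r of -0.012 over all tested genes and -0.567 over the members. Pearson's r leaves out a shift common to all genes. The median log2 ratio of replicate 2 to replicate 1 over all tested genes was -0.09 in mutant and -0.13 in wild-type cells. Whether a number marks a batch was not tested. With the replicate block, 1 paralog pair differed and 1 member was higher relative to the family total; 3 members rose, and the other counts of calls stayed within 1.5 times. The cause of these changes was not tested.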
